A study of Mus musculus with 10 samples.

Results

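The cytosolic ribosomal protein genes encode the protein part of the ribosome that translates nuclear messenger RNA. They were taken by symbol from a testis RNA-seq count table: the large subunit genes (Rpl and Rplp with a number), the small subunit genes (Rps with a number) and Rpsa, leaving out Rpl10, Rpl39, Rpl22, Rpl7 and Rps27. The rule found 72 of the 25239 genes in the table, 42 of the large subunit and 30 of the small subunit. It reads symbols only, but the members were chosen with earlier results of these data known. In every cell the proteins of both subunits are made in matched amounts and assembled with ribosomal RNA in the nucleolus. Their messengers are among the most abundant of a growing cell, and are short, with few exons. Most begin with a cytosine followed by a run of pyrimidines, the 5′ terminal oligopyrimidine (TOP) tract, through which the mTOR pathway sets their translation. In the postnatal testis the ribosome supply of the spermatogonia, the dividing germ cells, bears on the passage from self-renewal to differentiation.

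Libraries came from unsorted testis RNA of C57BL/6 mice, a strain shared by all groups, with germ cell given as the cell type label. The conditional knockout (cKO) carries floxed Lsm7, which encodes a subunit of the LSM complex that binds U6 snRNA, and its genotype label adds stra8, the gene of differentiating spermatogonia whose promoter is used to drive Cre in male germ cells. There were 3 cKO and 2 wild-type (WT) libraries at postnatal day 4 (P4), and 3 cKO and 2 WT libraries at postnatal day 7 (P7). Nothing in the labels says that each library is a separate animal, so the spread behind every p-value below could be that of technical repeats. The study asks what loss of Lsm7 does to spermatogonial differentiation.

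Library totals were 28799371 to 41797353 assigned reads. The P7 WT libraries differed little beyond counting noise, with a chi-square of 1.98 per degree of freedom against 22.2 to 115.8 for the other pairs within a group, and were summed and counted as 1 sample. Of the counts under 50 in a library 67.8% to 79.7% were even, and 80% in P7 WT library 1, so reads may not be single counts; the chi-square, the intervals and the floors here take each read as 1 count. Lsm7 itself had 44.9, 50.5 and 43.6 CPM (read counts scaled to a common library size, with TMM factors) in the libraries labelled cKO at P4, and 36.2 and 25.7 CPM in P4 WT. At P7 those labelled cKO had 45.2, 26.0 and 20.3 CPM, and WT had 33.3 CPM. Neither test found Lsm7 lower in the libraries labelled cKO (log2 fold change 0.58, edgeR adjusted p = 0.215 at P4, and -0.13, edgeR adjusted p = 0.835 at P7), and cKO below means the libraries labelled so. Germ cells were present in every library: the 12 pan-germ-cell markers summed to 242 to 249 CPM in P4 cKO and 289 and 393 CPM in P4 WT, and to 1126 to 1255 CPM in P7 cKO and 1603 CPM in P7 WT. Sertoli, Leydig, peritubular, macrophage and endothelial markers were all detected as well, so each value below is a sum over the cell types of the testis. In such bulk samples fewer cells of a type and less RNA per cell cannot be told apart.

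The ribosomal protein genes took a larger share of the reads in cKO than in WT at both ages. They held 6.02%, 6.51% and 6.75% of the reads in the P4 cKO libraries, against 4.03% and 4.15% in P4 WT. At P7 they held 5.29%, 5.27% and 4.32% in cKO, against 2.55% in each WT library. The groups did not overlap at either age, and the share was lower at P7 than at P4 in both genotypes. The 95% Wilson intervals of these shares were at most 0.0173 percentage points wide. They cover counting error only, since PCR reads without molecular identifiers are not independent molecules.

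**Figure D1:**
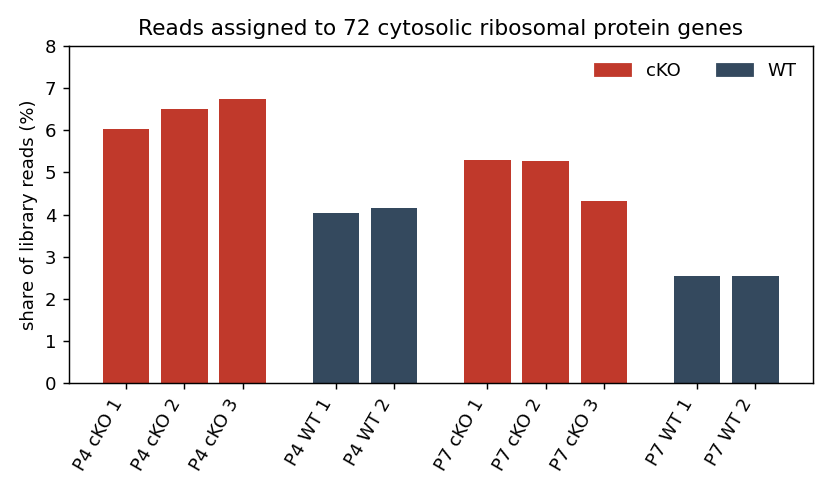
Share of each library's assigned reads that fell on the 72 cytosolic ribosomal protein genes (%, vertical axis), with 1 bar for each library and cKO in red, WT in dark blue. The P4 cKO bars stand at 6.02 to 6.75% and the P4 WT bars at 4.03 and 4.15%; the P7 cKO bars stand at 4.32 to 5.29% and the P7 WT bars at 2.55%.

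Not all 72 genes could be read. Rpl26, a protein at the mouth of the peptide exit tunnel, had 0 to 2 reads in each library and 0 in 5 of the 10. That allows up to 0.106 CPM of assigned reads (3 reads on TMM-scaled totals), which need not be its transcript level. Rpl26 failed the filter on low counts and is untested. Rpl30 had 1 to 15 reads and Rpl34 12 to 127 reads in each library. In the annotation 520 of the 543 exon bases of Rpl26 are shared with Gm15772, 476 of 626 of Rpl30 with Gm12191 and 413 of 689 of Rpl34 with Rpl34-ps1, and none of those 3 partner genes held a read. The remaining 69 genes each had at least 5000 reads over all libraries. Ribosomal protein genes also have many processed pseudogenes, and the treatment of reads that match several places is not given in the sources used here, so the counts of single members carry an uncertainty beyond their standard errors.

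Among those 69, levels per kilobase of exon spanned 14.6-fold in P7 WT and 21.6-fold to 33.8-fold in the other samples. The ratio between the upper and lower quartile was 1.77 to 2.27. Their median was 1098 to 1320 CPM per kilobase in P4 cKO and 625 and 694 CPM per kilobase in P4 WT. At P7 it was 699 to 899 CPM per kilobase in cKO and 423 CPM per kilobase in WT. The highest in the mean over samples was Rpl23a, the large subunit protein at the tunnel exit where the signal recognition particle docks (chr11:78180936-78183584, minus strand, as the table gives it for GRCm38). It stood at 3329, 3754 and 3467 CPM per kilobase in P4 cKO against 1499 and 1731 CPM per kilobase in P4 WT. At P7 it stood at 1939, 2295 and 1891 CPM per kilobase in cKO against 829 CPM per kilobase in WT. Every cKO library was above WT of its age. The lowest was Rps15a, at 98.5 to 160 CPM per kilobase in P4 cKO and 60.9 and 73.7 CPM per kilobase in P4 WT, counted over a union exon length of 5134 bases. Even this gene ranked above 93.6% of all tested genes in the sample where it ranked lowest. The order of the 69 genes was much alike in all samples, with Spearman correlations per kilobase of 0.764 to 0.972 between pairs of samples (69 genes, which share their length and base composition in both samples). The summed large subunit CPM was 1.24 to 1.34 times the small subunit sum in P4 cKO and 1.32 and 1.37 times in P4 WT. At P7 the ratio was 1.30 to 1.35 in cKO and 1.24 in WT.

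At P4, 42 of the 71 tested ribosomal protein genes rose in cKO and 0 fell. Over all 18419 genes tested 4.84% rose and 4.13% fell (edgeR quasi-likelihood test, adjusted p under 0.05). All 71 had a positive log2 fold change, from 0.29 to 2.28 with a median of 0.84, against a median of 0.00 over all genes. In 70 of the 71 every cKO library was above both WT libraries, against 24.1% of all genes; the exception was Rpl21, with 726 CPM in its lowest cKO library and 732 CPM in its highest WT library. At an unadjusted p under 0.05, 62 were higher and 0 lower, against 29.3% of all genes in either direction. DESeq2 called 52 higher and 0 lower, and 3008 of all 18419 genes in either direction. Of the large subunit genes 21 of 41 rose and the median was 0.84, and of the small subunit genes 21 of 30 rose and the median was 0.84. The calls changed with single libraries. Without cKO library 2, cKO library 3 or WT library 1 at P4, 0 members passed, and only 13, 11 and 2 genes of the whole table did. Without P4 WT library 2, 24 members passed. The median stayed between 0.78 and 0.90 through all these omissions.

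**Figure D2:**
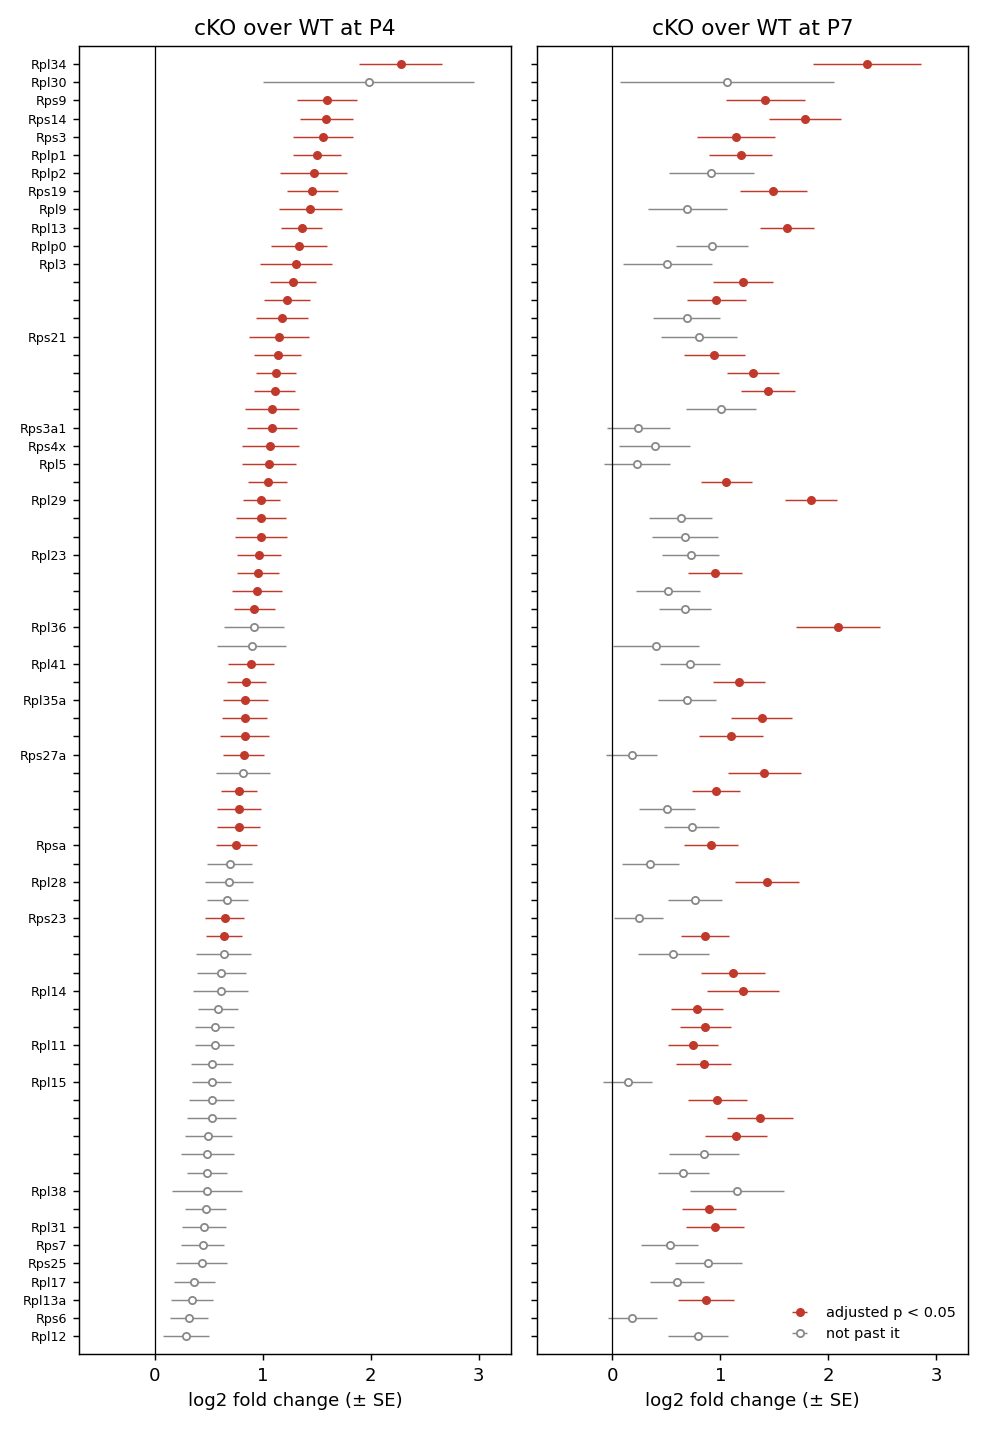
Log2 fold change of cKO over WT with its standard error (horizontal axis) for the 71 tested ribosomal protein genes, at P4 on the left and P7 on the right, ordered by the P4 value, with names at those of the set list and those with the highest or lowest fold changes of a comparison. Filled red points passed an edgeR adjusted p of 0.05 (42 genes at P4, 36 at P7) and open grey points did not; every point lies right of 0.

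The largest differences among well-read genes at P4 were in the small subunit. Rps9 (chr7:3704041-3706897, plus strand), which lines the messenger RNA entry channel, had 759.6, 1004 and 1136 CPM in cKO against 250.04 and 389.7 CPM in WT. All cKO libraries lay above both WT libraries, and the log2 fold change was 1.59 ± 0.28 (SE, edgeR adjusted p = 0.0147). Rps3 (chr7:99477896-99483709, minus strand), its neighbour at that channel, had 676, 994 and 1284 CPM in cKO against 298 and 372 CPM in WT, a log2 fold change of 1.56 ± 0.28 (edgeR adjusted p = 0.0155). Rps14 (chr18:60774596-60778546, plus strand), a platform protein near the messenger exit, had 985, 1188 and 1483 CPM in cKO against 396 and 414 CPM in WT. It rose by 1.59 ± 0.25 on the log2 scale (edgeR adjusted p = 0.0122). In all 3 genes cKO library 1 was the lowest of its group and library 3 the highest. Rps19 (chr7:24884592-24889811, plus strand), a head protein and the gene most often mutated in human Diamond-Blackfan anaemia, had 654, 731.5 and 928 CPM in cKO against 279.9 and 281 CPM in WT. Its WT libraries were almost equal, and its log2 fold change was 1.46 ± 0.23 (edgeR adjusted p = 0.0122).

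By place in the small subunit, 10 of 14 head genes rose at P4 with a median log2 fold change of 0.83, and 11 of 16 body and platform genes with a median of 0.88. Rps4x, a body protein encoded on the X chromosome, had 1216, 1250 and 1614 CPM in cKO against 542 and 754 CPM in WT (log2 fold change 1.07 ± 0.26, edgeR adjusted p = 0.0338). Rpsa, also known as the laminin receptor, had 2016, 2075 and 1874 CPM in cKO against 1092 and 1268 CPM in WT (log2 fold change 0.75 ± 0.19, edgeR adjusted p = 0.0357). Rps27a, which is made as a fusion with ubiquitin, had 607, 654 and 822 CPM in cKO against 383 and 402 CPM in WT (log2 fold change 0.82 ± 0.19, edgeR adjusted p = 0.0274). The groups of these 3 genes did not overlap. Rps6, the substrate of the S6 kinases, was at the other end. It had 1076, 1253 and 1272 CPM in cKO against 889 and 1038 CPM in WT, and its log2 fold change of 0.32 ± 0.18 did not pass (edgeR adjusted p = 0.255). Rps25 and Rps7, with log2 fold changes of 0.43 and 0.44, did not pass either.

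In the large subunit the genes of the stalk proteins, which recruit the elongation factors, all rose. Rplp1 (chr9:61913283-61914510, minus strand) had 845, 963 and 1154 CPM in cKO against 320.4 and 378 CPM in WT, a log2 fold change of 1.499 ± 0.22 (edgeR adjusted p = 0.0114). Rplp2 had 285, 430.1 and 559 CPM in cKO against 116 and 190.1 CPM in WT (1.47 ± 0.31, edgeR adjusted p = 0.0225). Rplp0, which anchors both to the ribosome, had 1716, 1771 and 1988 CPM in cKO against 602 and 848 CPM in WT (1.33 ± 0.26, edgeR adjusted p = 0.0192). All 3 stalk genes thus rose with no overlap between the groups. Rpl12, the protein at the foot of that stalk, had the lowest P4 fold change of all tested members. It had 1043, 1126 and 1012 CPM in cKO against 986 and 748 CPM in WT, so that its groups were barely apart (log2 fold change 0.29 ± 0.21, edgeR adjusted p = 0.382).

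Rpl5 and Rpl11 carry 5S ribosomal RNA into the large subunit and bind Mdm2 when assembly is disturbed. Rpl5 (chr5:107900528-107909005, plus strand) had 839, 967 and 1216 CPM in cKO against 378 and 592 CPM in WT, and rose by 1.05 ± 0.25 on the log2 scale (edgeR adjusted p = 0.0297). Of its 2019 exon bases 964 overlap Dipk1a on the other strand, which held 5702 reads over all libraries against 223848 for Rpl5. Rpl11 had 969.5, 1125 and 1028 CPM in cKO against 712 and 708 CPM in WT; its log2 fold change was 0.55 ± 0.18 (edgeR adjusted p = 0.072). Rpl3, which reaches towards the peptidyl transferase centre, rose by 1.31 ± 0.33 (edgeR adjusted p = 0.0376), with 1047, 920.5 and 1339 CPM in cKO against 364 and 527 CPM in WT. Rpl13 rose by 1.36 ± 0.19 (edgeR adjusted p = 0.0114), with 1227, 1369 and 1289 CPM in cKO against 486 and 523 CPM in WT. Both had each cKO library above each WT library.

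Of the 6 tested genes that line the peptide exit tunnel 1 rose at P4, Rpl23a, at 1.12 ± 0.18 (edgeR adjusted p = 0.0122), and their median log2 fold change was 0.52. Rpl17, a tunnel protein, and Rpl13a, which in human monocytes leaves the ribosome on interferon treatment, had log2 fold changes of 0.37 and 0.34 with edgeR adjusted p of 0.228 and 0.259. Rpl23, Rpl29, Rpl35a and Rpl41 rose, at log2 fold changes of 0.96, 0.99, 0.84 and 0.89 (edgeR adjusted p = 0.0228, 0.0147, 0.0343 and 0.0312). Rpl41 encodes the shortest ribosomal protein, and Rpl29 one that mice can live without. Rpl34 had the highest fold change, 2.28 ± 0.38 (edgeR adjusted p = 0.0136), on 2.43 to 3.01 CPM in cKO against 0.53 and 0.59 CPM in WT, and Rpl30 the second highest, 1.98 ± 0.98 (edgeR adjusted p = 0.2). Both are the barely read genes described above. Of the 18 tested genes whose mutation causes Diamond-Blackfan anaemia in humans 8 rose, with a median of 0.68.

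**Figure D3:**
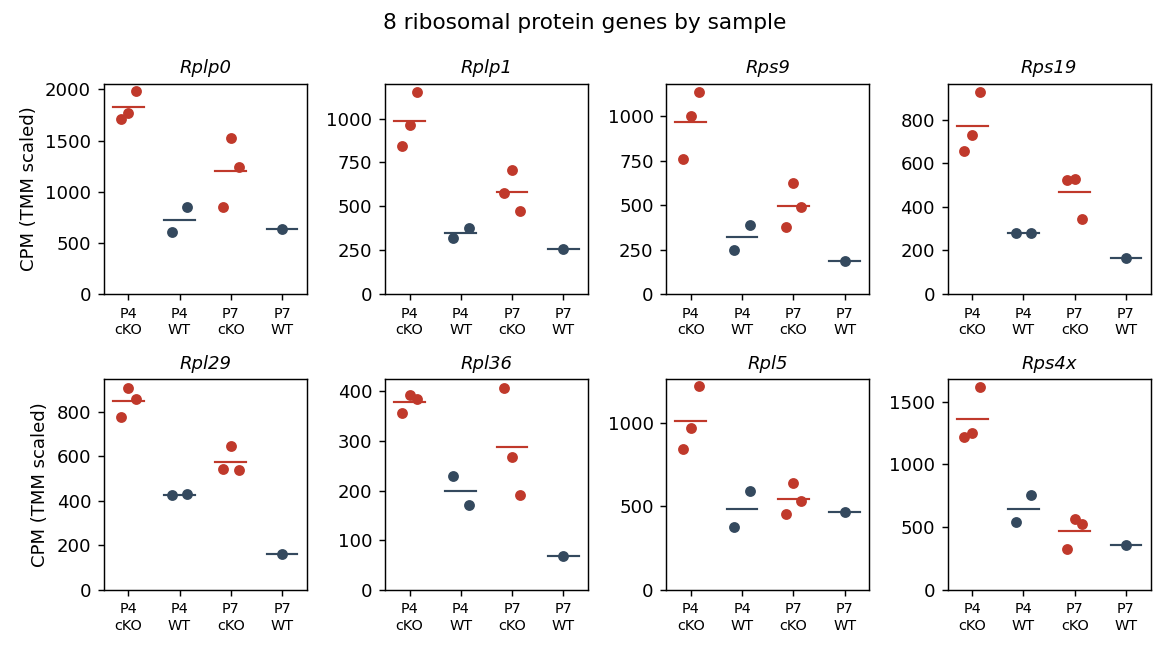
Level of 8 ribosomal protein genes (CPM on TMM-scaled library sizes, vertical axis from 0) in each sample, with cKO in red, WT in dark blue, a dot for each sample and a line at the group mean; the P7 WT libraries are summed to 1 dot. At P4 all 8 have every cKO dot above every WT dot, while at P7 Rpl5 and Rps4x have a cKO dot below the WT dot.

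Promoter sequences are shown for members that rose at P4, because genes that move together may carry letters in common. RefSeq promoter windows (assembly GRCm38.p6) were matched by symbol for 53 of the 72 genes, and the 250 bases before the most upstream annotated start were searched on both strands for 4 motifs. The ETS core CCGGAAG was in 34.0% of the members' windows and in 7.07% of the 27025 genes with a window. The element TCTCGCGA was in 17.0% against 0.932%, and the GC box GGGCGG in 47.2% against 33.0%. The TATA box TATAAA was in 1.89% against 13.0%. No match of a motif overlapped a match of another in the members. Below are the 100 bases before the start, 5′ to 3′ on the gene's strand, with matches of CCGGAAG and TCTCGCGA on either strand in capitals. The first 4 are the members that rose at P4 with an ETS core in this stretch, and Rps19 is the member with TCTCGCGA that rose most.
Rps10 (chr17:27635245-27635344, minus strand): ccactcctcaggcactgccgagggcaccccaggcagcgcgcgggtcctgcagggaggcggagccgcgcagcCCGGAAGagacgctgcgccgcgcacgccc
Rps21 (chr2:180257279-180257378, plus strand): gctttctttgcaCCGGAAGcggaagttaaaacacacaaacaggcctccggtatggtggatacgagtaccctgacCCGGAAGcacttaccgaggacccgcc
Rps3a1 (chr3:86142669-86142768, minus strand): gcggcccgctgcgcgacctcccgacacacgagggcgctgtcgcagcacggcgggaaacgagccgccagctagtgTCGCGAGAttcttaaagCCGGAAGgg
Rpl41 (chr10:128549169-128549268, minus strand): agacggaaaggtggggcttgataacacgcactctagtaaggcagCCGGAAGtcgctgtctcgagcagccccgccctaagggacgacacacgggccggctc
Rps19 (chr7:24884492-24884591, plus strand): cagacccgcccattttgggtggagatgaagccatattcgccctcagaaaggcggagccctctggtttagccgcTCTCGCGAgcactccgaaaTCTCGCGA

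Rps21 carries the ETS core 2 times and Rps19 carries TCTCGCGA 2 times, the nearer copy ending at the base before the annotated start. Rps3a1 holds both motifs within 26 bases of its start. The motif did not mark the genes with the larger difference. The 18 tested members with an ETS core had a median P4 log2 fold change of 0.63, and the 34 without it 0.92; at P7 the medians were 0.87 and 0.86. For TCTCGCGA the P4 medians were 0.68 in 8 genes with it and 0.84 in 44 without it. A match is a description of these letters only, and binding was not measured.

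The TOP tract was read from GENCODE M21 transcripts as a cytosine at the first base followed by at least 4 pyrimidines. Of the 72 members 27.8% had such a start in any protein-coding transcript, against 5.12% of 21877 protein-coding genes. The tracts of 4 members that rose at P4 are shown, those with the largest P4 fold changes among the called members that have an annotated tract, with the tract in capitals and the first 15 bases in all.
Rps9: CTCTTTgtctcgggc
Rps3: CCTTTCCTTTCagcg
Rps10: CTTTCCagcctccgc
Rpl37a: CTCTTCggacttggg

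The 20 members with an annotated tract had a median P4 log2 fold change of 0.96, and the other 51 tested members 0.78. Annotated starts may lie some bases away from the cap site, and no cap sites were measured here.

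At P7 the ribosomal protein genes were again higher in cKO. Here 36 of 71 rose and 0 fell, while over all genes 7.26% rose and 9.72% fell (edgeR adjusted p under 0.05). All 71 had a positive log2 fold change, from 0.14 to 2.36 with a median of 0.89 (all genes 0.08). In 66 of the 71 every cKO library was above the summed WT sample, against 36.2% of all genes. The other 5, Rpl3, Rpl4, Rpl5, Rps3a1 and Rps4x, were below WT in cKO library 1. At an unadjusted p under 0.05, 53 were higher and 0 lower, against 33.3% of all genes in either direction. DESeq2 called 48 higher and 0 lower, and 4247 of all 18419 genes in either direction. The large subunit counted 22 of 41 genes that rose (median 0.89) and the small subunit 14 of 30 (median 0.87). These P7 calls rest on a single WT sample whose spread is assumed to be that of the other groups. With only the P7 samples in the fit 0 members passed, and 0 of 17832 genes of the whole table. With length and GC offsets 0 members passed, and 2 of 17989 genes of the whole table. Without P7 cKO library 2, 12 members passed, and without P4 cKO library 2, which enters through the shared spread, 19.

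Among well-read genes the largest P7 differences were those of Rpl36 and Rpl29. Rpl36 (chr17:56613395-56614246, plus strand) had 407, 268 and 190.5 CPM in cKO against 67.8 CPM in WT, a log2 fold change of 2.09 ± 0.39 (edgeR adjusted p = 0.00915). Rpl29 (chr9:106429411-106431568, plus strand) had 545, 645 and 537 CPM in cKO against 161 CPM in WT, a log2 fold change of 1.84 ± 0.24 (edgeR adjusted p = 0.00642). Rpl13 had 774, 1028 and 801 CPM in cKO against 283 CPM in WT (1.62 ± 0.25, edgeR adjusted p = 0.00642). In these genes every cKO library was above WT. Rpl36 is a small protein of the large subunit and Rpl13 sits on its solvent side. Rps14 had 894, 838 and 563 CPM in cKO against 222 CPM in WT (1.78 ± 0.33, edgeR adjusted p = 0.00905). Rps19 had 524, 528 and 346 CPM in cKO against 166 CPM in WT (1.49 ± 0.31, edgeR adjusted p = 0.0125). Rps9 and Rplp1 also rose again, at log2 fold changes of 1.42 and 1.19 (edgeR adjusted p = 0.0249 and 0.0207).

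The smallest P7 differences were those of Rpl15, Rps27a, Rps6, Rpl5, Rps3a1 and Rps23, at log2 fold changes of 0.14 to 0.24 that did not pass (edgeR adjusted p = 0.477 to 0.698). Rpl5 had 452, 640 and 532 CPM in cKO against 462 CPM in WT, so that the groups overlapped. Rplp0 and Rplp2 had log2 fold changes of 0.92 each with edgeR adjusted p of 0.0755 and 0.128. Rps4x had 323, 562 and 523 CPM in cKO against 358 CPM in WT (0.39 ± 0.33, edgeR adjusted p = 0.433). In the exit tunnel 4 of 6 tested genes rose at P7, with a median of 0.90, and in the 40S head 9 of 14, with a median of 1.05.

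Across the ages 21 members rose at both, which is 50% of the P4 calls and 58.3% of the P7 calls, and 14 passed at neither. The genotype fold changes at P4 and P7 had a Pearson correlation of 0.296 and a Spearman correlation of 0.248 across the 69 well-read members, as a description; the members share length and base composition at both ages. The difference between the ages was itself tested as a genotype by stage interaction. It passed for 0 of 71 members and for 0% of all genes in either direction (edgeR adjusted p under 0.05). At an unadjusted p under 0.05 there were 4 of 71 members, or 5.63%, against 25.1% of all genes. The members' median was 0.03, with 34 of 71 below 0. With length and GC offsets the median was -0.43, with 64 of 71 below 0. There 14 members, or 19.7%, had an unadjusted p under 0.05, against 21.7% of all genes. DESeq2 called 1 member, and with the P7 WT libraries kept apart edgeR called 2.

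The P7 differences moved with base composition and length. Across the 69 members the P7 log2 fold change had a Pearson correlation of 0.61 with the GC content of the longest transcript and -0.353 with log2 exon length. At P4 the same correlations were 0.0897 and -0.121. These are descriptions over genes of the same libraries. Other genes of like length shared part of the P7 difference. Of 792 other genes with up to 700 exon bases the median P7 log2 fold change was 0.60, against 0.96 in the 32 members of that length. At P4 the medians were 0.24 in those genes and 0.86 in those members. With offsets that remove a smooth trend on length and GC content from each library, the median of the members was 0.79 at P4 and 42 rose, 35 of them shared with the 42 without offsets. Rpl3, Rplp2 and Rpl41 were among those that no longer passed at P4. At P7 the median was 0.32 and 0 rose, where only 2 of 17989 genes passed. With length offsets alone 10 members rose at P7. Under length and GC offsets 12 of the 71 members had a log2 fold change below 0 at P7, among them Rpl3, Rpl41, Rplp2, Rps3a1 and Rps6. Under length offsets 10 of 71 did, among them Rpl15, Rps23, Rps27a, Rps3a1, Rps4x and Rps6. At P4 none of the 71 did under either. The part of GC content and length in the P7 result was not tested further.

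**Figure D4:**
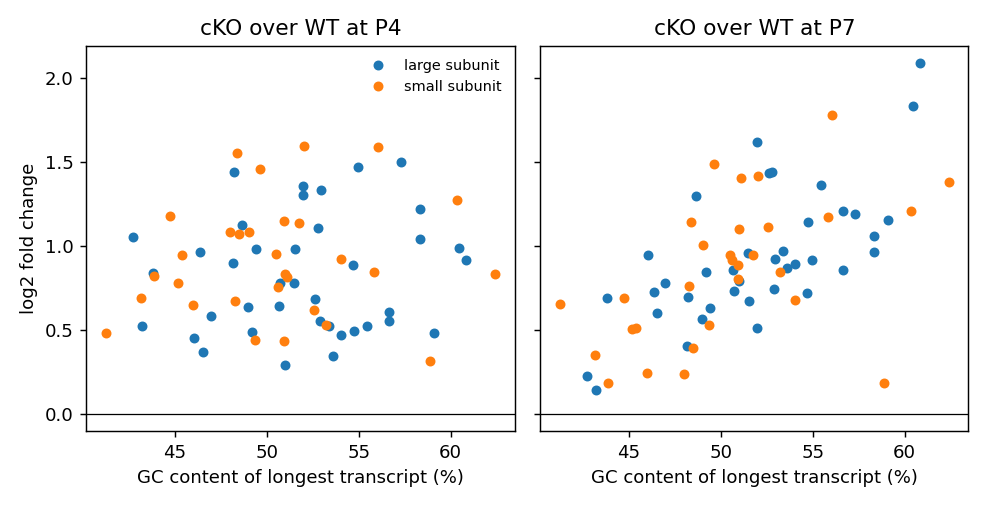
Log2 fold change of cKO over WT (vertical axis) against the GC content of the longest transcript (%, horizontal axis) for the 69 members with at least 5000 reads, at P4 on the left and P7 on the right, with large subunit genes in blue and small subunit genes in orange. The points rise with GC content at P7 (Pearson 0.61) and not at P4 (0.0897).

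**Figure D5:**
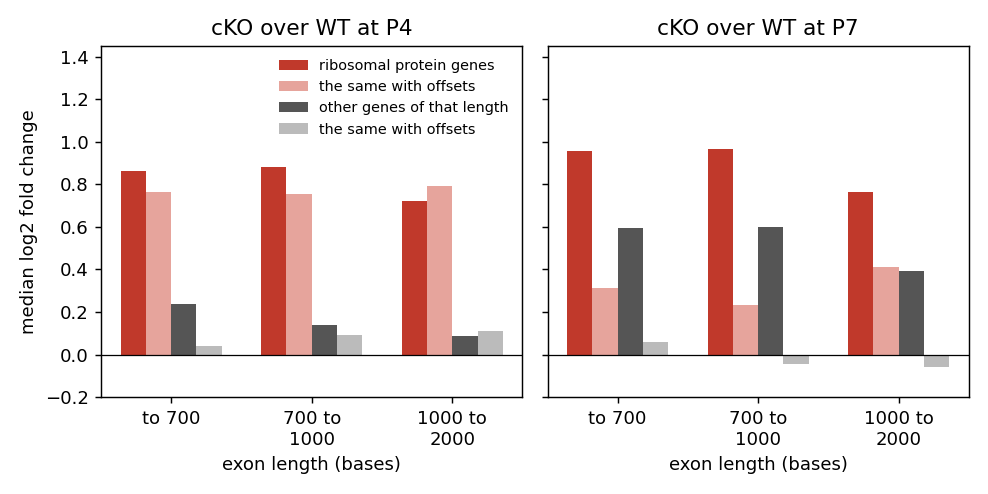
Median log2 fold change of cKO over WT (vertical axis) by exon length band (bases) for members and for all other tested genes of that band, each without and with length and GC offsets, at P4 on the left and P7 on the right. In the band to 700 bases the members' median was 0.86 at P4, and 0.76 with offsets; at P7 it was 0.96, and 0.31 with offsets.

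The ribosomal protein genes were lower at P7 than at P4 in both genotypes. In cKO 37 of 71 fell and 0 rose, while over all genes 14.7% fell and 14.5% rose (edgeR adjusted p under 0.05), and the median log2 fold change of P7 over P4 was -0.53 (all genes 0.00). In 51 of the 71 every P7 cKO library was below every P4 cKO library, against 23.2% of all genes. In WT 15 of 71 fell and 0 rose, while over all genes 9.97% fell and 11.8% rose, with a median of -0.61 (all genes -0.03). The cKO count was 20 on unscaled library totals, which moved the median of all genes to 0.18, and 14 without P4 cKO library 3, 20 without P4 cKO library 2 and 20 without P7 cKO library 3. The WT count was 2 without P4 WT library 1 and 31 without P7 cKO library 1. In cKO 20 large and 17 small subunit genes fell, and in WT 13 large and 2 small subunit genes. The median with length and GC offsets was -0.68 in cKO, where 56 fell, and -0.25 in WT, where 4 fell.

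Rps4x, on the X chromosome, had the largest fall in cKO. It had 323, 562 and 523 CPM at P7 against 1216, 1250 and 1614 CPM at P4, with no overlap (log2 fold change -1.53 ± 0.23, edgeR adjusted p = 0.000733). In WT it had 358 CPM at P7 against 542 and 754 CPM at P4 (-0.86 ± 0.36, edgeR adjusted p = 0.103). Rps9, Rpl3 and Rpl9 followed in cKO at log2 fold changes of -0.96, -0.95 and -0.91 (edgeR adjusted p = 0.0111, 0.0283 and 0.0194). Rpl14, Rpl38 and Rpl34 had log2 fold changes of -0.18, -0.18 and -0.17 there that did not pass, and that were just above 0 on unscaled library totals. Rpl30, barely read, was the 1 member above 0 there (0.39 ± 0.68, edgeR adjusted p = 0.699). In WT the largest falls were those of Rpl36, Rpl29, Rpl28 and Rpl31. Rpl36 had 67.8 CPM at P7 against 229 and 171 CPM at P4 (-1.56 ± 0.39, edgeR adjusted p = 0.0175), and Rpl29 161 CPM at P7 against 427 and 429 CPM at P4 (-1.41 ± 0.24, edgeR adjusted p = 0.0034). Rplp2, Rps3a1 and Rps21 had WT log2 fold changes of 0.31, 0.05 and 0.04 that did not pass and were below 0 without P4 WT library 1. The other X-linked member, Rpl36a, fell in cKO by 0.90 on the log2 scale (edgeR adjusted p = 0.012).

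P7 cKO library 1 stood apart from its group in these genes. Of the 69 well-read members 36 were higher there than in both other P7 cKO libraries and 18 were lower than in both. Its log2 ratio to the mean of the other two ran from -1.15 in Rpl4 and -1.09 in Rpl3 to 0.83 in Rpl36 and 1.04 in Rpl38. The median coefficient of variation of a member was 20.1% in P7 cKO, 9.11% in P4 cKO and 9.20% in P4 WT. The log2 ratio of P4 WT library 1 to library 2 ordered the members much alike. Across the 69 members the 2 within-group ratios, which share no library, had a Pearson correlation of 0.814 and a Spearman correlation of 0.83. The ratios had Pearson correlations of -0.304 and -0.224 with log2 exon length. Without P7 cKO library 1 the median log2 fold change at P7 was 0.80 and 42 members rose. Calls over the whole table were then 4921 of 18314 genes in either direction, against 7.26% up and 9.72% down with all libraries.

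Of the 5 ribosomal protein genes left out by the rule, Rpl39, Rpl7 and Rpl10 rose in cKO at P4, at log2 fold changes of 0.89, 0.92 and 0.62 (edgeR adjusted p = 0.0291, 0.037 and 0.0449), and 0 passed at P7. Fau, whose product is cut to free a ribosomal protein of the small subunit, rose at both ages. It had 303, 315 and 425 CPM in P4 cKO against 148 and 160 CPM in P4 WT (1.17 ± 0.22, edgeR adjusted p = 0.0177), and at P7 its log2 fold change was 1.40 ± 0.29 (edgeR adjusted p = 0.0129). Among 8 paralogs that replace or resemble a member, Rps4l and Rps27l rose at P4. Rps4l, the autosomal relative of Rps4x, had 95.3, 117 and 111 CPM in P4 cKO against 31.1 and 54.0 CPM in P4 WT. At P7 it had 166, 227 and 180 CPM in cKO against 57.2 CPM in WT (1.74 ± 0.33, edgeR adjusted p = 0.00931). Its CPM was thus higher in cKO at both ages, with no overlap. With length and GC offsets the P7 log2 fold change was 0.56 for Rps4l and 0.21 for Fau (edgeR adjusted p = 0.521 and 0.798). At P4 with these offsets the values were 1.02 and 0.90 (edgeR adjusted p = 0.0493 and 0.0409).

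Of 20 other genes with TOP messengers, which include elongation and initiation factors, 7 rose and 0 fell at P4, with a median log2 fold change of 0.65. Eef2, the translocase, had 1946, 1749 and 2135 CPM in cKO against 703 and 970 CPM in WT (1.22 ± 0.27, edgeR adjusted p = 0.0251). Eef1g, Rack1 and Eef1d also rose, at 1.08, 0.89 and 0.75 (edgeR adjusted p = 0.0219, 0.0224 and 0.0294). At P7 1 of the 20 rose and 1 fell. Of the mitochondrial ribosomal protein genes 18 of 77 rose and 0 fell at P4, with a median of 0.35, and 17 of 77 rose and 0 fell at P7, with a median of 0.42. Over all genes 4.84% rose at P4 and 7.26% at P7. With length and GC offsets 19 of the 77 rose at P4, with a median of 0.38, and 0 at P7, with a median of 0.11. Mrps34, of the small mitochondrial subunit, had the smallest p of these at P4 (1.21 ± 0.18, edgeR adjusted p = 0.0122).

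Of 20 assembly factors of the large subunit 3 rose and 0 fell at P4, with a median of 0.09: Nop53, Mrto4 and Rrs1. Nop53, which brings the nuclear exosome to the maturing large subunit, had 222, 269 and 273 CPM in cKO against 87.6 and 98.0 CPM in WT (1.46 ± 0.22, edgeR adjusted p = 0.0122). Of 19 assembly factors of the small subunit 0 rose and 2 fell at P4, Wdr75 and Riok1, at log2 fold changes of -0.70 and -0.62 (edgeR adjusted p = 0.0403 and 0.048). With length and GC offsets neither passed, at -0.45 and -0.39 (edgeR adjusted p = 0.149 for each). Over all genes tested 4.84% rose and 4.13% fell at P4 without offsets. Of 15 regulators of ribosomal protein synthesis 0 passed at P4, and 2 rose and 5 fell at P7. Taf1 and Eif4ebp1 had the smallest p at P4. Their log2 fold changes were -0.55 and 0.78 (edgeR adjusted p = 0.0505 and 0.054). Eif4ebp2 and Mtor followed (edgeR adjusted p = 0.127 and 0.138). At P7 Eif4ebp1 and Rptor rose, at log2 fold changes of 1.11 and 0.71. Rps6kb1, Gabpa, Rheb, Yy1 and Taf1 fell there, at -1.18, -1.07, -1.035, -0.92 and -0.77. Over all genes 7.26% rose and 9.72% fell at P7. With length and GC offsets 0 of the 15 passed at P7, where only 2 of 17989 genes did. The 5 genes then stood at -0.12, -0.27, -0.91, -0.82 and -0.09, and Eif4ebp1 and Rptor at 0.87 and 0.33. Larp1, Myc and the genes called at P7 are named here after their values were seen. Larp1, which holds TOP messengers when mTOR is inactive, had a log2 fold change of -0.08 at P4 (edgeR adjusted p = 0.78), and Myc, which drives ribosomal protein transcription, -0.03 (edgeR adjusted p = 0.933).

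Several other measures are given beside the ribosomal protein genes. Of this read share and these marker sums, only the ribosomal RNA precursor Rn45s was above WT in every cKO library at both ages. It took 0.316%, 0.649% and 0.337% of reads in P4 cKO against 0.098% and 0.0782% in P4 WT. At P7 it took 0.399%, 0.6003% and 0.347% in cKO against 0.143% in each WT library. Summed Sertoli markers (12 genes, none at 0) were 5258 to 5907 CPM in P4 cKO against 3312 and 4228 CPM in P4 WT, and 4996 to 5362 CPM in P7 cKO against 5299 CPM in P7 WT. Macrophage markers (8 genes, none at 0) were 88.6 to 146 CPM in P4 cKO and 84.5 and 84.7 CPM in P4 WT, and 51.1 to 63.8 CPM in P7 cKO and 74.8 CPM in P7 WT. Peritubular and stromal markers (11 genes, none at 0) were 8581 to 11930 CPM in P4 cKO and 7627 and 9051 CPM in P4 WT, and 3652 to 5543 CPM in P7 cKO and 5467 CPM in P7 WT. Endothelial markers (7 genes, none at 0) were 354 to 374 CPM in P4 cKO and 299.5 and 289.7 CPM in P4 WT, and 126 to 179 CPM in P7 cKO and 155 CPM in P7 WT. Leydig markers (8 genes, none at 0) were 1643 to 1770 CPM in P4 cKO and 1778 and 1504 CPM in P4 WT, and 959 to 1075 CPM in P7 cKO and 886 CPM in P7 WT. Although these sums overlap at P4, 3 of the 8 Leydig markers rose there and 0 fell, with a median log2 fold change of 1.26, and at P7 1 rose and 0 fell, with a median of 0.20. At P4 4 of 12 Sertoli markers (median 0.54), 3 of 8 macrophage markers (median 1.04) and 3 of 11 peritubular and stromal markers (median 0.55) rose and 0 fell. Markers of undifferentiated spermatogonia (12 genes, none at 0) were 234 to 262 CPM in P4 cKO and 195 and 269 CPM in P4 WT, and 333 to 462 CPM in P7 cKO and 483 CPM in P7 WT. Those of differentiating spermatogonia (7 genes, none at 0) were 125 to 157.5 CPM in P4 cKO and 133 and 129 CPM in P4 WT, and 689 to 859.5 CPM in P7 cKO and 537 CPM in P7 WT. The pan-germ-cell sum was lower in cKO at both ages, as given above; over its 12 genes the median log2 fold change was -0.29 at P4, where 0 rose and 2 fell, and 0.34 at P7, where 0 rose and 1 fell, so that at P7 the sum and the median differ in sign. Of the 5 red cell markers the 4 globin genes had 0 reads in every library. The part of ribosomal RNA content and of cell composition in the higher ribosomal protein levels was not tested.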

How the data were processed

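The deposited table holds raw counts per gene, made by the authors, per the submitters' processing notes, with Trim Galore 0.6.10, STAR 2.7.11a, SAMtools 1.6 and featureCounts of Subread 2.0.6 on GRCm38 (mm10). The sources used here give no strand or multi-mapping setting. RNA was total testis RNA with an integrity number of at least 6.5, per the labels' protocols. In the table, knockout columns carry a short name of the gene in place of cKO and were matched to the sample titles.

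From these counts edgeR 4.0.16 (R 4.3.3) gave TMM library sizes, CPM and quasi-likelihood tests over 9 samples in 4 groups, the P7 WT libraries being summed. Genes passed filterByExpr with a minimum count of 10, which left 18419, with 5 residual degrees of freedom and a common coefficient of variation of 0.228. P-values were Benjamini-Hochberg adjusted over all tested genes, and an adjusted p under 0.05 is a call. All columns of the table were used. The procedure was tested on simulated data. Intervals and floors cover counting error only.

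The members and lists were chosen with earlier results of these data known. Named members are the 6 highest and 6 lowest fold changes of each genotype comparison, the 4 highest and 4 lowest of each age comparison, and 19 set ones; related lists give up to 4 genes with the smallest p at P4. Members named for their level, overlap, motif or library ratio were chosen after their values were seen. Values of some single genes are not reported here. Alternatives were RLE factors, library totals, other filters, DESeq2 1.42.0, limma-voom 3.58.1, other sample sets, a replicate block, offsets on length and GC content (spline with 5 degrees of freedom; 97.7% of tested genes have a GC value), and each library left out. Length offsets and TMM without the members were added after seeing the data.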

Additional observations from a re-analysis of the deposited data

How the results depend on the processing

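No alternative gave a named member a fold change below 0 at P4. The P4 count ranged from 0 to 58 with 1 library left out, and the P4 median was 0.68 on library totals, which moved the median of all genes by -0.16. The P7 count was 0 with the compared groups alone, where 0 of 17832 genes of the whole table passed. It was 57 with 10 libraries, 58 with the replicate block on 10 libraries, 0 with length and GC offsets and 10 with length offsets. With 1 library left out it ranged from 12 to 42. The P7 median was 0.32 with length and GC offsets and 0.35 with length offsets. The cKO age count was 20 on library totals (median -0.35), 56 with length and GC offsets, and 14 to 52 with 1 library left out. The WT age count was 25 with DESeq2, 42 with 10 libraries, 43 with the replicate block, 4 with length and GC offsets (median -0.25), 7 with length offsets (median -0.33), and 2 to 31 with 1 library left out. The interaction count was 1 with DESeq2, 2 with 10 libraries and 5 with the replicate block. The deviations of same-numbered libraries from their group means had correlations of -0.164 to 0.308 between groups. Those of differently numbered libraries had correlations of -0.308 to 0.247. In a group of 2 libraries the deviations mirror each other, so these values cannot tell whether the numbers pair the libraries. The cause of these changes was not tested.

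Some log2 fold changes of named members changed sign. At P7 they were, with length offsets, -0.0857 for Rpl15, -0.36 for Rps23, -0.38 for Rps27a, -0.28 for Rps3a1, -0.11 for Rps4x and -0.22 for Rps6. With length and GC offsets they were -0.0082 for Rpl3, -0.20 for Rpl41, -0.0131 for Rplp2, -0.0058 for Rps3a1 and -0.855 for Rps6. On library totals the cKO age values were 0.0026 for Rpl14, 0.0051 for Rpl34 and 0.0037 for Rpl38, and the WT age values -0.0419 for Rps21 and -0.0376 for Rps3a1. At a minimum count of 50 the WT age values were -0.0169 for Rps21 and -0.0121 for Rps3a1. With 1 library left out, Rpl38 ranged from -0.62 to 0.0737 in the cKO age comparison, and in the WT one Rplp2 from -0.0091 to 0.71, Rps21 from -0.01 to 0.09 and Rps3a1 from -0.23 to 0.37. Of the other values of named members, 76 at P4 and 48 at P7 no longer passed the threshold under an alternative, and 5 and 16 newly passed it. Low counts limit only Rpl26, Rpl30 and Rpl34, whose exon bases are mostly shared with other annotated genes that held no read. Whether depth or read assignment lies behind these low counts was not tested.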
